A study of Rattus norvegicus with 3 samples.

Results

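The insulin-like growth factor (IGF) genes described here were Igf1, a secreted growth factor, Igf1r, its cell surface receptor, and the binding proteins Igfbp1 to Igfbp7. They were chosen by the gene name printed on the array, with upper and lower case treated alike. Of these 9, 8 had probes under their own name, 14 probes in all, which filled 41 of the 43379 rat spots on each array. All 8 were among the 20247 genes tested. Igfbp7 had no probe under that name and is described separately through its gene ID. The samples were 3 RNAs from M13, a rat line of induced pluripotent stem (iPS) cells, that is adult cells reprogrammed to resemble embryonic stem cells, untreated and grown in serum and serum replacer on irradiated mouse embryonic fibroblast feeders. Each was labelled with Cy3 and hybridised against mix1, labelled with Cy5, an RNA made from cultured rat bone marrow cells and primary rat ear fibroblasts, also grown in serum. M13 is 1 line, the share of each cell type in mix1 was not given in the sources used here, and any hybridisation of feeder RNA was not tested.

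IGF1 and IGF2 are secreted polypeptides that signal through the IGF1 receptor, a tyrosine kinase that activates the PI3K/AKT and RAS/ERK pathways. The high-affinity IGF binding proteins (IGFBPs) hold the ligands in the extracellular fluid, lengthen their half-life and control their access to the receptor, and proteases such as PAPP-A release the ligand by cutting them. Stromal cells and fibroblasts in culture are known sources of IGF1 and of several IGFBPs.

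The probes carry the measurement, and probes of one gene gave different values, so those on which the results turn are shown first. The Igf1 probes lie along 1 gene on chromosome 7, and the pair whose positions span several kb cross a splice junction. The last of these 5 was named by its accession and not as Igf1, although its description is Igf1 exon 6.
Igf1 A_44_P126021, rn3 chr7:24552241-24557334, plus strand: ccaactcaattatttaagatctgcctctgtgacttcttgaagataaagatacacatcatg
Igf1 A_44_P421502, rn3 chr7:24554021-24554080, plus strand: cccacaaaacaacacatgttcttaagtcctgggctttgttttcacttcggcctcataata
Igf1 A_44_P421499, rn3 chr7:24554081-24557319, plus strand: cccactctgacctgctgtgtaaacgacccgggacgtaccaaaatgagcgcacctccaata
Igf1 A_44_P366723, rn3 chr7:24624986-24625045, plus strand: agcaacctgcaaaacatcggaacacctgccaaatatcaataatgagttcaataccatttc
Igf1 A_44_P1044658, rn3 chr7:24628010-24628069, plus strand: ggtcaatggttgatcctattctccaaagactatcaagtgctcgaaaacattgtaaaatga
The Igfbp4 pair is shown because its probes differed in measured ratio, though the second gives only a bound. The Igfbp2 probe, the most GC-rich of the members' probes at 70% GC, is shown because its value moved with a correction for probe GC content, and the first Igfbp4 probe, at 30% GC, was the least GC-rich.
Igfbp4 A_43_P16767, rn3 chr10:87848583-87848642, plus strand: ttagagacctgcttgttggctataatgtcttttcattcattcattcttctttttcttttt
Igfbp4 A_44_P515317, rn3 chr10:87843934-87843993, plus strand: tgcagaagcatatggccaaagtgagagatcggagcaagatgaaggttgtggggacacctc
Igfbp2 A_44_P547185, rn3 chr9:72114139-72114198, plus strand: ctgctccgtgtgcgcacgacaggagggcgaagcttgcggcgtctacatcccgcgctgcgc
The probes of the neighbours Igfbp1 and Igfbp3, and the probe assigned to Igfbp7, complete the set.
Igfbp1 A_44_P422836, rn3 chr14:87973881-87973940, plus strand: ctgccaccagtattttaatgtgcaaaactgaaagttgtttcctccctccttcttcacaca
Igfbp3 A_42_P627998, rn3 chr14:87979639-87979698, minus strand: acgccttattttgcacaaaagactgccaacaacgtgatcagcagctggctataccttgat
Igfbp7 A_44_P375102, rn3 chr14:33067515-33067574, plus strand: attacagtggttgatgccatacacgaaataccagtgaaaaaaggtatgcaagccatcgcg

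Compared with mix1, 7 of the 8 genes tested were lower in iPS M13, 0 were higher and 1, Igfbp1, did not pass. Calls required an adjusted p under 0.05 by limma, with Benjamini-Hochberg adjustment over all genes tested, and a log2 ratio of iPS M13 over mix1 of at least 1 in size. By the same rule 25.5% of all genes tested, 5164 of 20247, were lower and 18.7%, 3786 genes, were higher. The median log2 ratio of the 8 genes was -4.97, or -4.69 with Igfbp5 at its bound, against -0.03 over all genes tested. Of the 14 probes, 12 were well above background in 1 RNA on all 3 arrays. When each probe was tested on its own, 11 of these were lower in iPS M13, against 25.1% of all kept probes. The kept Igfbp5 probe, the dimmer Igfbp4 probe and the Igf1 junction probes passed only through mix1, the brighter RNA. For these probes the filter itself favours a lower call. Under a filter that required both RNAs to be well above background, 6 genes were lower and 0 higher. Adjusted p-values of the 7 called genes ran between 6.50e-07 and 1.87e-05 by limma. With 3 arrays that correlated at 0.997 to 0.998 and a median SD of 0.0339, 19455 genes passed the adjusted p alone, so the size of a ratio says more here than its p.

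**Figure D1:**
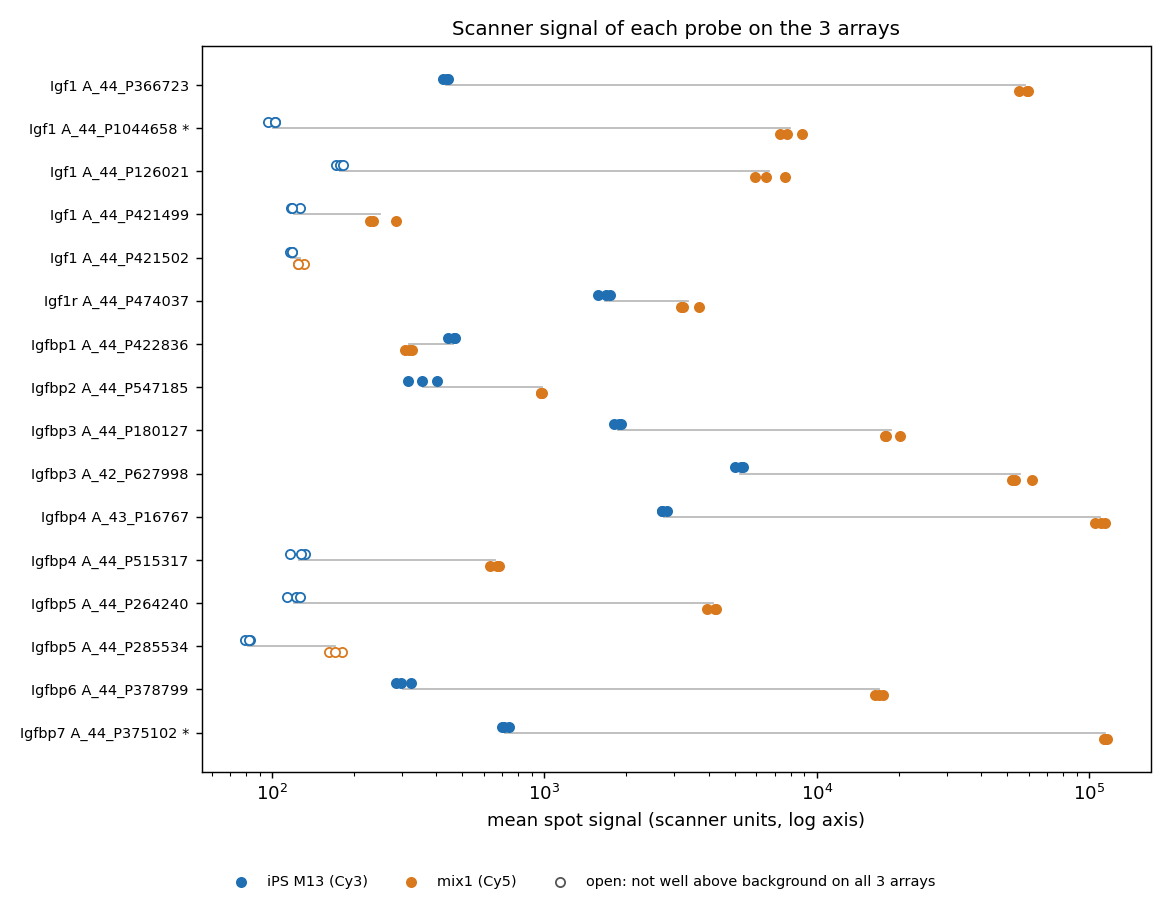
Mean spot signal of each probe in scanner units on a log axis, with 1 point per array, iPS M13 in blue above mix1 in orange. Open points mark an RNA not well above background on all 3 arrays, and asterisks mark probes outside the naming rule. Apart from Igfbp1, the iPS M13 points lie left of the mix1 points for all the probes shown.

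All 3 arrays ran with iPS M13 in Cy3 and mix1 in Cy5, so dye and cell type cannot be told apart. mix1 was 1 RNA, so how mix1 itself varies does not enter the tests. The labels do not say that the iPS M13 samples were separate cultures, and the p-values then reflect only how these samples differ, which may be technical. In RNA of a whole culture, fewer cells of a type and less RNA per cell cannot be told apart. Of 12 fibroblast markers, 12 were lower in iPS M13, with a median log2 ratio of -7.41. Their summed signal was 23631 to 26166 scanner units in iPS M13, against 1980620 to 2185070 in mix1, and in iPS M13 10 of the 12 exceeded background on each array. Among them were Col3a1 at a log2 ratio of -10.79, Dcn at -10.37 and S100a4 at -8.90, and Col1a1 and Col1a2 were at -7.09 and -8.82 on their brightest probes, with other probes as low as -10.91 and -9.49. Of 6 marrow stromal markers tested, 5 were lower, among them Cxcl12 at -7.49, Spp1 at -5.12 and Vcam1, at least 31.7-fold lower. All 8 macrophage and blood cell markers tested were lower, among them Cd14 at -7.49, Lyz2 at -7.43 and Itgb2 at -5.99. In iPS M13 6 of the 8 exceeded background on each array. Ptprc, which did not, was at least 1.83-fold lower, a bound that alone would not reach the 2-fold minimum of a call. Of 13 pluripotent cell markers listed, 8 had a probe and 6 were tested. Of these 6, 5 were higher in iPS M13, Epcam at 4.71, Dnmt3b at 4.10, Cdh1 at 3.07, Sox2 at 2.62 and Pou5f1, at 1.31 with mix1 not well above background. Lin28a was at -0.16 and not called, and Nanog was not tested here. Of 10 primitive endoderm and liver markers listed, 3 were tested. Among these Afp was higher at 3.82, and Dab2 at -6.51 and Gata6, at least 5.29-fold lower, were lower. The part of any of these cell types in the IGF values below was not tested.

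The ligand Igf1 was far lower in iPS M13. Averaged over the kept probes under its name it was at -5.11, above Igfbp6. That mean takes in a junction probe dim in iPS M13, at -1.41, and leaves out the exon 6 probe. With processed signals Igfbp5 read -8.00 and Igf1 -7.88, but Igfbp5 was not above background in iPS M13 and so cannot be ranked. On its brightest probe Igf1 had the lowest measured ratio of the 8 genes. On that probe, which lies in the 3′ part of the gene, the signal was 438, 441 and 423 scanner units in iPS M13, against 54978, 59455 and 59120 units in mix1 on replicates 1, 2 and 3. The groups were far apart on each array, and the weaker RNA was still well above background. The log2 ratio was -7.91 ± 0.13 (SD, n = 3; limma adjusted p = 1.24e-06), 240-fold lower in iPS M13. Here and below, signals are as scanned and ratios are after background correction and loess, so a ratio is not the quotient of the signals. Only 50 of the 20247 genes tested, Igf1 included, had a ratio this low or lower.

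The other Igf1 probes did not give 1 common value. The probe across the junction from the most upstream exon measured had 172, 178 and 182 units in iPS M13, above background on 2 of 3 arrays, against 5948, 7625 and 6489 units in mix1. Its log2 ratio was -6.02 ± 0.07 (SD, n = 3). The probe described as exon 6 had 96.7, 102 and 103 units in iPS M13, above background on 0 arrays, against 7311, 8845 and 7775 units in mix1, a difference of at least 74.7-fold. A bound of this kind sets mix1 against the higher of the dim signal and the lowest signal that is well above background. These 3 probes thus placed Igf1 far lower in iPS M13, at both ends of the gene.

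The pair of probes between them read differently. The rat Igf1 gene is known to be transcribed from alternative leader exons, which give class 1 and class 2 transcripts, of which class 2 is best known from liver, and the files do not say which class a probe reads. The probe across the junction from the downstream one of the leader positions had 118, 126 and 118 units in iPS M13, not well above background, against 235, 285 and 229 units in mix1, a difference of at least 2.10-fold with a measured log2 ratio of -1.41 ± 0.05 (SD, n = 3). This probe starts 1840 bases downstream of the start of the first junction probe, and the ends of both lie 15 bases apart. The probe directly upstream of it, read by 10 spots per array, had 116, 118 and 118 units in iPS M13 and 125, 132 and 124 units in mix1, above background on 0 arrays in both RNAs, and gives no fold. In mix1 the most upstream probe was thus bright, one of the pair was dim and the other was not above background, though levels of different probes cannot be set against each other.

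The 300-base RefSeq window around the Igf1 start, 250 bases before it to 50 after it, holds both of the dim probes. It is shown because it places them, with the stretches shared with the probes in capitals.
Igf1, GRCr8 chr7:24172282-24172581, plus strand: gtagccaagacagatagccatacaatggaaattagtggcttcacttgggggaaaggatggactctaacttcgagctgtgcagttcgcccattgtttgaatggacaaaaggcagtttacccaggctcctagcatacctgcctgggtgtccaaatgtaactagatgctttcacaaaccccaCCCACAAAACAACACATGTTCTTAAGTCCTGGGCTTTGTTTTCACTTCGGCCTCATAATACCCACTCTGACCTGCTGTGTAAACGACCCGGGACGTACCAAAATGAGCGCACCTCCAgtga
All 60 bases of the first dim probe match window bases 180 to 239, so it lies wholly upstream of the start that RefSeq gives. Of the junction probe, the first 57 bases match window bases 240 to 296, beginning 11 bases before that start, and its last 3 bases lie beyond the junction. The remaining 3 Igf1 probes share no stretch of 12 or more bases with the window.

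**Figure D2:**
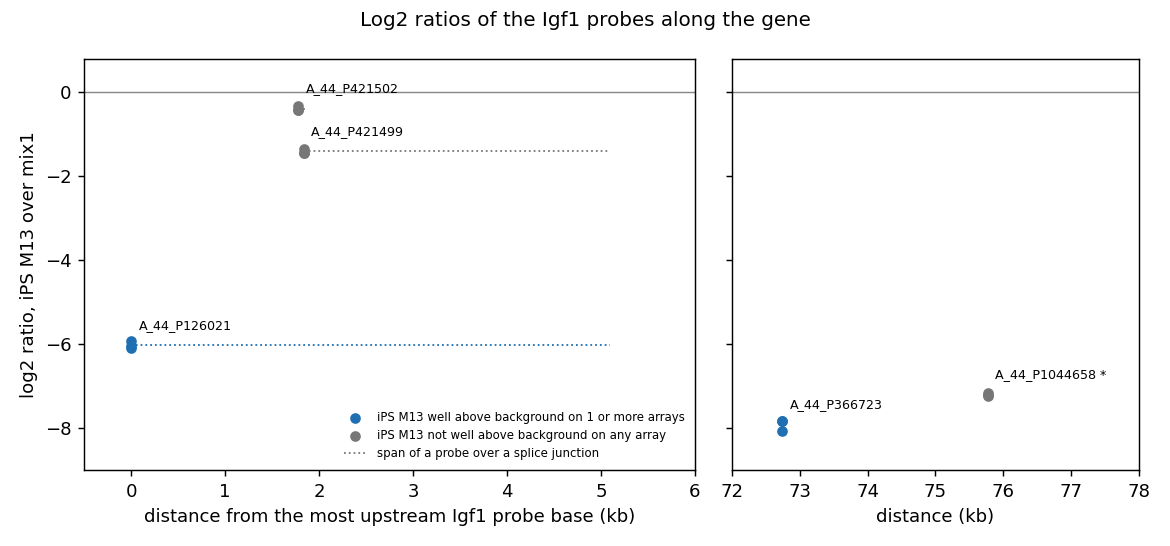
Log2 ratios of the 5 Igf1 probes on the 3 arrays, against distance in kb from the most upstream probe base. Points in grey are of probes with iPS M13 well above background on 0 of the 3 arrays, and dotted lines span splice junctions. The probes at 0, 72.7 and 75.8 kb have means of -6.02, -7.91 and -7.20, and those at 1.78 and 1.84 kb lie above -2.

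Igf2, the fetal growth factor that shares the IGF1 receptor, was also lower in iPS M13 and remained bright. Its signal was 6408, 6166 and 6609 units in iPS M13, against 32069, 33673 and 33171 units in mix1, and the log2 ratio was -3.09 ± 0.03 (SD, n = 3; limma adjusted p = 8.50e-07). Among related ligands, Rln1, the relaxin gene, was higher in iPS M13, with 1696, 1917 and 1783 units against 343, 385 and 362 units in mix1, a log2 ratio of 1.56 ± 0.02 (SD, n = 3). Ins1 had a log2 ratio of -0.21 and Insl3, which acts in testis descent, one of -0.03, and neither was called. The signs of both turned under other scalings, given in the closing section. Ins2 and Insl6 were not well above background on all 3 arrays in either RNA and were not tested.

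The receptor Igf1r was lower in iPS M13 by less than the ligand. Its 10-spot probe had 1579, 1734 and 1675 units in iPS M13, against 3182, 3706 and 3213 units in mix1. The ranges did not overlap, and the log2 ratio was -1.82 ± 0.02 (SD, n = 3; limma adjusted p = 1.39e-06), 3.54-fold lower in iPS M13. Spots of this probe within an array had an SD of 0.02 to 0.03 on the log2 scale. With median centring in place of loess the log2 ratio was -0.98 and the call was lost. That scaling moved the median of all genes by 0.60, and relative to it Igf1r stood at -1.56, against -1.80 with loess.

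Igf2r, the mannose 6-phosphate receptor, which takes up IGF2 for degradation, had 13334, 12961 and 13421 units in iPS M13 and 151294, 164369 and 155278 units in mix1. Insr, the insulin receptor, had 331, 337 and 615 units in iPS M13 and 212, 226 and 432 units in mix1, so replicate 3 was brighter in both channels. Its log2 ratio was 0.04 ± 0.17 (SD, n = 3; limma adjusted p = 0.592), and its sign turned without replicate 1, at -0.02. Neither probe of Insrr, the insulin receptor-related receptor, was above background in either RNA.

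The binding proteins differed widely among themselves, with log2 ratios between -0.02 and -8.12. Igfbp6, which prefers IGF2 as its ligand, had 286, 297 and 323 units in iPS M13, against 16285, 17446 and 16943 units in mix1, and a log2 ratio of -6.66 ± 0.04 (SD, n = 3). It was 101-fold lower in iPS M13, and its 3 array values did not overlap those of Igfbp4. With the GC trend of the probes taken off, the order of these 2 turned, with Igfbp4 at -6.54 and Igfbp6 at -6.10. Igfbp5, which has only a bound, has no place in this order.

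Igfbp4, an inhibitor of IGF action that PAPP-A cuts, had 2811, 2710 and 2710 units in iPS M13, against 109858, 114240 and 105258 units in mix1 on its brightest probe. The log2 ratio was -6.02 ± 0.03 (SD, n = 3), 64.9-fold lower in iPS M13. The second probe lies 4590 bases upstream on chromosome 10. It had 132, 117 and 128 units in iPS M13, below the background threshold throughout, against 629, 681 and 670 units in mix1, a difference of at least 5.64-fold. Both probes put Igfbp4 lower in iPS M13. The 64.9-fold of the first lies within the bound of the second, so these probes do not show whether the size differs. The mean over both was a log2 ratio of -4.44, which takes in the dim probe. The first probe ends in a T-rich run, as its sequence shows.

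Igfbp5, which binds matrix and is made by stromal and bone cells, was not detected above background in iPS M13. Its brightest probe had 123, 113 and 126 units in iPS M13, against 3958, 4216 and 4267 units in mix1, at least 38.3-fold lower in iPS M13. The measured log2 ratio was -5.83 ± 0.08 (SD, n = 3) and moved to -8.00 with the scanner software's processed signals. Its second probe, 3288 bases away, had 79.4, 82.7 and 82.3 units in iPS M13 and 162, 181 and 170 units in mix1, which was well above background on 2 arrays, so it was not tested.

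Igfbp3, the main carrier of IGFs in blood, gave nearly the same ratio on both of its probes. The brightest had 4999, 5373 and 5253 units in iPS M13, against 52168, 61560 and 53272 units in mix1, and a log2 ratio of -4.12 ± 0.0037 (SD, n = 3; limma adjusted p = 6.50e-07). The other, read by 10 spots per array and lying 1058 bases upstream on the same strand across a splice junction, had 1797, 1910 and 1880 units in iPS M13, against 17733, 20199 and 17982 units in mix1, and a log2 ratio of -4.13 ± 0.02 (SD, n = 3). Igfbp3 was 17.3-fold lower in iPS M13 and remained clearly detected.

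Igfbp2, a binding protein of fetal tissues, had 403, 316 and 354 units in iPS M13 and 974, 971 and 982 units in mix1. The log2 ratio was -2.08 ± 0.12 (SD, n = 3; limma adjusted p = 1.87e-05), 4.21-fold lower in iPS M13. With a correction for the GC content of the probes it was -1.15 and still called. Its array values overlapped neither those of Igfbp3 nor those of Igf1r.

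Igfbp1, a liver-made binding protein whose transcription is known to be repressed by insulin, was the exception. It had 471, 443 and 466 units in iPS M13 and 317, 327 and 308 units in mix1, a low signal in both RNAs but well above background on all 3 arrays. iPS M13 was the brighter channel before normalization, and after loess the log2 ratios were -0.0024, -0.06 and 0.0055. Their mean was -0.02 ± 0.03 (SD, n = 3; limma adjusted p = 0.421). The sign turned with the processing, to 0.26 for processed signals, 0.43 for median centring and 0.0106 with no background correction, and Igfbp1 was called under none of the alternatives run.

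**Figure D3:**
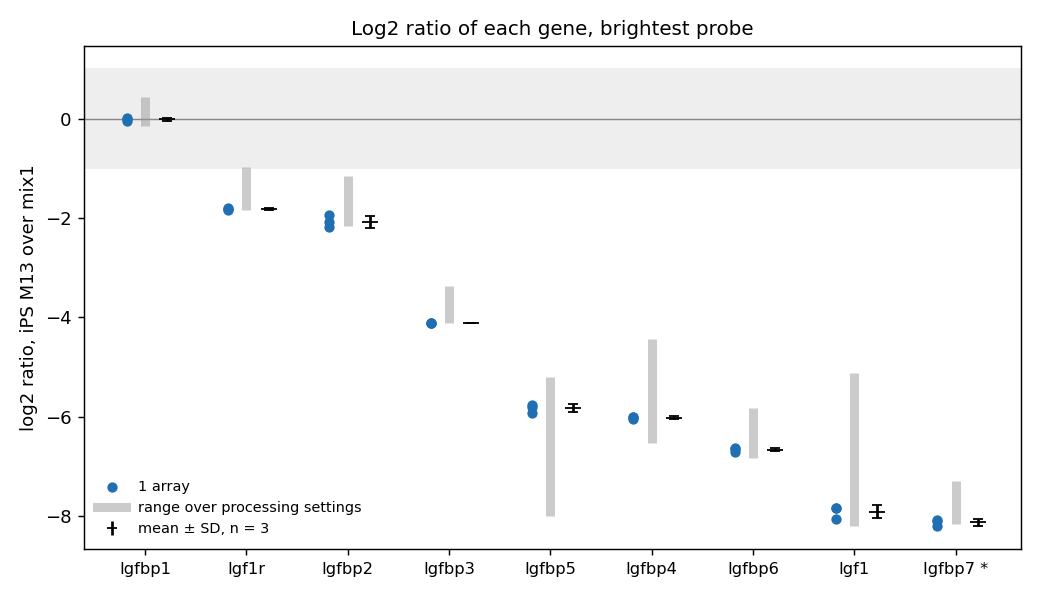
Log2 ratio of iPS M13 over mix1 for the brightest probe of each gene, with 1 blue point per array, the mean with its SD (n = 3) in black and the range over processing settings in grey. The band between -1 and 1 holds no calls. Igfbp1 lies at 0, Igf1r and Igfbp2 near -2, and the other genes between -4.12 and -8.12, the asterisk marking Igfbp7, which was found by gene ID.

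Igfbp7, a low-affinity member secreted into matrix, was on the array under a placeholder described as similar to mac25, with a gene ID that RefSeq gives to Igfbp7. This probe had 739, 697 and 711 units in iPS M13, against 112689, 116387 and 113728 units in mix1. Its log2 ratio of -8.12 ± 0.07 (SD, n = 3; limma adjusted p = 6.50e-07) made it 278-fold lower in iPS M13, and its array values lay just below those of Igf1, with -8.07 as its highest and -8.06 as the lowest of Igf1. With it, 6 of 7 binding proteins were lower, with a median log2 ratio of -5.83, or -5.26 with Igfbp5 at its bound.

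Genes that lie side by side did not share 1 value. The probes of Igfbp1 and Igfbp3 are 5699 bases apart on chromosome 14, on opposite strands, and their log2 ratios were -0.02 and -4.12. Those of Igfbp2 and Igfbp5 are 33096 bases apart on chromosome 9, also on opposite strands. The log2 ratio of Igfbp2 was -2.08, or 4.21-fold lower. Igfbp5, not above background in iPS M13, has only a bound, at least 38.3-fold lower. The RefSeq promoters of the first pair are shown because these neighbours differed. Capitals mark the motif CAAAACA, the half-site of the insulin response element known from the Igfbp1 promoter.
Igfbp1, GRCr8 chr14:86261027-86261326, plus strand: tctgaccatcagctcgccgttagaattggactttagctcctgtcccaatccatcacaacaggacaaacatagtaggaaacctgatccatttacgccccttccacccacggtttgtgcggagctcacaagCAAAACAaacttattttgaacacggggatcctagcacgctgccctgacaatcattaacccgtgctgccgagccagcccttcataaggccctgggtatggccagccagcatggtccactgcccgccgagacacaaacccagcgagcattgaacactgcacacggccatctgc
Igfbp3, GRCr8 chr14:86277895-86278194, minus strand: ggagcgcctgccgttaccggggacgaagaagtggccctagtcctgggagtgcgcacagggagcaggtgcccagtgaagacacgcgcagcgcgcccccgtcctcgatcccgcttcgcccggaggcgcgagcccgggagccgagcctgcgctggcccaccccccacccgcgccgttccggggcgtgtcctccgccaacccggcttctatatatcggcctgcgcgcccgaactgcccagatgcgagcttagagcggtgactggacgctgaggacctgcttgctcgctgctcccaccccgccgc
The Igfbp3 window had 71.7% GC and 36 CG dinucleotides, and the Igfbp1 window had 54% GC and 13 CG dinucleotides, beside medians of 51.7% and 7 over 33469 promoters of the same length. All 9 genes had such a window in GRCr8, and 3 motifs were searched in them on both strands. CAAAACA was found in 2 of the 9, those of Igf1 and Igfbp1, and in 6.28% of all windows. In Igf1 it lies within the first dim probe, and whether the transcripts read by the brighter Igf1 probes start in this window was not tested. The GC box GGGCGG was found in 3 of the 9, those of Igf1r, Igfbp2 and Igfbp7, and in 33.1% of all windows. TATAAA was found in 1 of the 9, that of Igfbp4, and in 14.2% of all windows. No window of the 9 held more than 1 of the 3 motifs, so none overlapped.

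Each gene well above background in both RNAs was set beside the 2 genes whose ratios on the 3 arrays were nearest to its own, among 9252 genes so measured. Igf1 was nearest to Pmp22, at a mean log2 ratio of -7.92, and Mmp12, at -7.88. Igf1r was nearest to Arap1 and Trafd1, and Igfbp1 to Rpl37 and Smad5. Igfbp2 was nearest to Aff2 and Hps4, and Igfbp3 to Card9 and Atad1. Igfbp4 was nearest to Emilin1, at -6.03, and Pla2g7, at -6.01, and Igfbp6 to Chrd and Tnfrsf1a, both near -6.6. These distances, from 0.01 to 0.12 log2 units, are over 3 arrays that share 1 control RNA.

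Genes that act on the IGFBPs were lower in iPS M13 nearly throughout. Of 12 genes tested for the IGF complex, IGFBP proteases and their inhibitors, 11 were lower and 0 higher. Their median log2 ratio was -4.78, or -4.61 with dim genes at their bounds. Beside this and the list counts below, 25.5% of all genes tested were lower and 18.7% higher. Among them were Pappa, the protease that cuts IGFBP4, at -8.31 ± 0.04, the matrix metalloproteinase Mmp2 at -8.14 ± 0.10 and Mmp3, not above background in iPS M13 and at least 138-fold lower (SD, n = 3). The brightest Pappa probe was above background on 2 of 3 arrays in iPS M13, and a second probe read -6.68. With the filter for signal in both RNAs, genes dim in iPS M13, such as Mmp3, were no longer tested, and 6 were lower and 0 higher. Of 8 CCN and low-affinity IGFBP-related genes, 7 were lower and 1 was higher, with a median of -8.10. Esm1, an endothelial proteoglycan with an IGFBP-type domain, was at least 338-fold lower on its brightest probe, and another probe read a log2 ratio of -8.30. The matricellular genes Ccn5 and Ccn2 had log2 ratios of -8.60 ± 0.05 and -8.48 ± 0.06 (SD, n = 3).

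The exception in that list was Igfbpl1, an IGFBP-like gene, which was higher in iPS M13. It had 20467, 24732 and 22282 units in iPS M13, against 1417, 1779 and 1517 units in mix1. The log2 ratio was 3.03 ± 0.03 (SD, n = 3; limma adjusted p = 9.11e-07), 8.14-fold higher in iPS M13.

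Matrix and surface partners of IGFBPs were also lower, 9 of 10 tested, beside 25.5% of all genes tested, with 0 higher and a median of -4.02. Cav1, the caveolar coat protein, was at -6.99 on its brightest probe, with others at -5.10 and -5.06. Fn1, fibronectin, was at -6.45 on its brightest probe and -6.89 on another. In the growth hormone axis, which drives Igf1 in liver, 5 of 6 genes tested were lower and 0 higher, with a median of -2.30. Stat5a was at -4.51 and Ghr, the growth hormone receptor, at -2.41 on its brightest probe and -1.12 on another, and Stat5b was at least 5.77-fold lower, being not above background in iPS M13.

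Downstream of the receptor, 3 lists were counted. Of 13 receptor adaptor genes, 6 were lower and 2 higher, with a median of -0.80, beside 25.5% lower and 18.7% higher of all genes tested. Shc1, which couples the receptor to RAS, was at -2.74 on its brightest probe and -1.65 on another, Grb14 at -2.44 and Sh2b2 at -2.42. Grb10, an inhibitor of IGF1R signalling, was at 1.39 and Sos2, a RAS exchange factor, at 1.21. Averaged over its probes, Shc1 was at -2.20, and Sos2, likewise averaged, was at 0.88 and not called. Of 26 PI3K, AKT and mTOR genes, 7 were lower and 0 higher, with a median of -0.38, and the lower share was near the 25.5% of all genes tested. With the GC trend of the probes taken off, 3 were lower. Tsc2, an mTOR inhibitor, was at -1.14, and Pik3cd, a PI3K catalytic subunit, was at least 1.75-fold lower, a bound that alone would not reach the 2-fold minimum of a call. These counts turned with the scaling, and with median centring 1 was lower and 6 were higher, with Tsc2 at -0.30 and not called. Of 11 RAS and ERK genes, 2 were lower and 3 higher, with a median of -0.28, shares near those of all genes tested, 25.5% lower and 18.7% higher. Mapk3, which encodes ERK1, was at -2.45 and Map2k2, which encodes MEK2, at -1.46, while Braf was at 1.48, the ERK target kinase Rps6ka1 at 1.37 and Nras at 1.06. With median centring 1 was lower and 5 were higher, and Map2k2, at -0.75, was not called.

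The IGF2 mRNA-binding proteins, which bind the Igf2 message and are known from embryonic cells, stood on the other side. Igf2bp3 had 3775, 4433 and 4135 units in iPS M13, against 284, 347 and 314 units in mix1, a log2 ratio of 2.89 ± 0.09 (SD, n = 3). Igf2bp1 had 2181, 2157 and 2242 units in iPS M13, against 266, 269 and 262 units in mix1, a log2 ratio of 2.28 ± 0.08 (SD, n = 3). Igf2bp2 was at 0.29 and not called, so 2 of 3 were higher, beside 18.7% of all genes tested. With median centring, and with no normalization, 3 were higher.

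**Figure D4:**
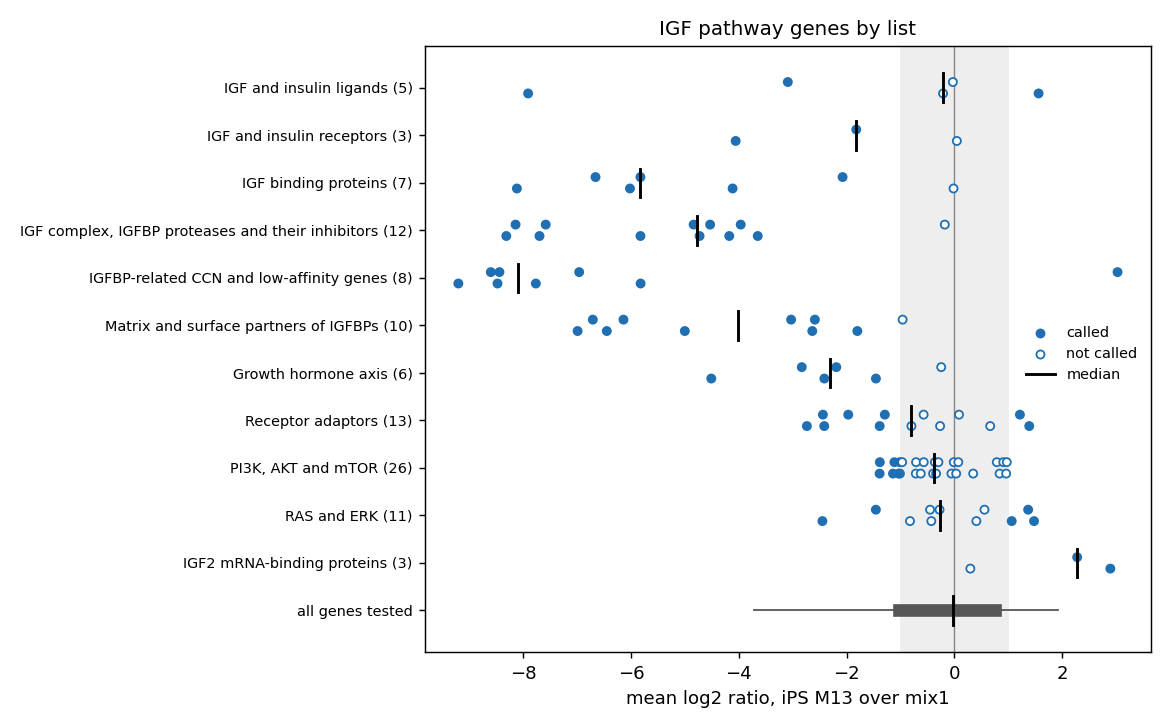
Log2 ratios, averaged over arrays, of the genes of each list in iPS M13 over mix1, with called genes filled, the list's median as a black line and the number tested in parentheses. The bottom row gives all genes but the lowest and highest 5% as a thin line and their quartiles as a thick one. The medians of the lists for binding proteins, proteases, CCN genes and matrix partners lie between -4.02 and -8.10, left of the band between -1 and 1, with Igfbpl1 at 3.03 on its right. The medians of the adaptor, PI3K and RAS lists lie inside the band, and 2 of 3 IGF2 mRNA-binding proteins lie right of it.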

How the data were processed

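The rat arrays, with 2 colours and 45018 spots each, were read with Agilent Feature Extraction 9.5.3.1, per the file headers. The intensities used were the mean spot signals and median local backgrounds as deposited. Alternatives were the processed intensities and log10 ratios of the same files, deposited after background detrending and dye normalization, and the authors' value table, which followed the log10 ratios at slopes of -3.32 and correlations of -1.00 and was taken to hold log2 of the Cy3 to Cy5 ratio (column medians -0.0413, -0.0282 and -0.0286, centring unknown). Probe positions are of build rn3, per the file headers, and promoter windows are RefSeq's, of GRCr8.

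Signals were corrected by normexp (offset 50) and loess within arrays in limma 3.58.1 under R 4.3.3, with 205, 263 and 192 flagged spots left out on replicates 1, 2 and 3. Probe names were updated through a RefSeq table by accession (10723 probes), symbol (5575), synonym (3730), gene ID (1931) or another accession (47), while 18992 stayed as the file names them. Control spots had weight 0, and spots of a probe were averaged. Of 41012 probes, 24149 were kept because 1 of the channels was well above background on each of the 3 arrays. The brightest kept probe stood for its gene. The mean log2 ratio was tested against 0 with lmFit and eBayes. Only this fit and the call rule were tried on simulated log2 ratios, with far fewer changed genes than were called here. Background correction, loess, spot averaging and probe choice were not part of that trial. Between 53.5% and 60.7% of probes were well above background in iPS M13 and 52.3% to 60.9% in mix1, and negative control medians were 76.0 to 77.4 units in Cy3 and 60.9 to 63.7 in Cy5. The number of arrays limits the precision.

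Members and lists were chosen with earlier results of these data known. Named were all members, the ligands and receptors, and from each other list up to 3 called genes in each direction with the largest ratios, with Igf2bp2, Lin28a and Nanog added after their values were seen. Some genes that this rule names are not reported here. Marker lists were named by up to 3 called genes with the largest ratios and their first 2. Alternatives changed the background correction, scaling, filters, probe choice, fold minimum and arrays.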

Additional observations from a re-analysis of the deposited data

How the results depend on the processing

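The lower call of Igf1, Igfbp2, Igfbp3, Igfbp4, Igfbp6 and Igfbp7 held under all alternatives run, and 6 or 7 genes were lower and 0 higher under each. Igf1r lost its call with median centring, at -0.98, and with a 4-fold minimum, at -1.82. Igfbp5 could not be tested where both RNAs had to be well above background, since it was not in iPS M13. Igfbp1 was not called anywhere, and its log2 ratio of -0.02 turned to 0.0106 without background correction, 0.26 with processed signals and with the authors' table, 0.43 with median centring and 0.37 with no normalization, and leaving out each replicate in turn gave -0.0289 to 0.00153. Log2 ratios of Insl3 turned to 0.23 with processed signals, and likewise with the authors' table, 0.36 with median centring, 0.31 with no normalization and 0.40 with the probe GC trend taken off. Those of Ins1 turned to 0.11, 0.0585 and 0.35 under the last 3 of these, and that of Insr turned to -0.33 with the GC trend taken off and leaving out each replicate gave -0.0230 to 0.139, the lowest without replicate 1. The median of all genes moved by 0.32 with processed signals, which change background and dye correction together, 0.60 with median centring and 0.55 with no normalization. All genes called higher numbered 6289 with processed signals and with the authors' table, 7365 with median centring and 6974 with no normalization, against 3786, and the share of calls that were higher was 56.6%, 67.2% and 65.1%, against 42.3%. Pathway genes called higher numbered 14, 14, 18 and 18 under these 4, against 8. Without a minimum fold, 9915 genes were lower, 9540 higher and 20 pathway genes higher, and with a 4-fold minimum 2697, 929 and 3. The call of Tsc2 was lost with processed signals and the authors' table, both at -0.77, with median centring, at -0.30, no normalization, at -0.36, the GC trend taken off, at -0.79, and the 4-fold minimum. The GC correction also ended the calls of Sos2, at 0.94, and Nras, at 0.69, and 3 PI3K, AKT and mTOR genes were lower. The mean over kept probes, also where iPS M13 was dim, gave -5.11 for Igf1, -7.50 for Pappa, -7.02 for Mmp2, -5.72 for Cav1 and -1.76 for Ghr. Every probe was also tested on its own, which called 11 of the 12 kept. The causes of these shifts were not tested. Each ratio was taken within an array, of a sample against the same mix1 RNA, and no pairing between samples was possible because they form 1 group. What limits the dim values is the signal over background: in iPS M13, 5 of 14 probes of these genes gave a bound or no fold.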
